A study of Mus musculus with 2 samples.

Results

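The 9 genes described here write, maintain and remove DNA methylation: Dnmt1, Dnmt3a, Dnmt3b, Dnmt3l, Uhrf1, Tet1, Tet2, Tet3 and Tdg. They were taken as a list of symbols, and every non-control probe whose transcript identifier maps to one of them in a RefSeq gene table was kept, which gave 18 of the 55681 probes and 9 of the 21360 genes named on the arrays. Of these genes, 3 had 1 probe, 3 had 2 probes and 3 had 3 probes, and each member probe was printed once. The RNA came from LSK cells, bone marrow cells without lineage markers that carry Sca-1 and c-kit and that hold the hematopoietic stem cells and early progenitors. There was 1 one-colour Agilent array for nondiabetic C57BL/6J mice and 1 for C57BL/6J mice made diabetic with STZ (streptozotocin, an alkylating drug taken up by pancreatic β cells). Each array pooled 3 mice and started from 8.3 ng of total RNA, which was amplified and labelled with Cy3. The labels give female mice on both arrays, with no age, dose or time after STZ, while the study's methods describe males that received STZ or citrate buffer by tail vein. With 1 array per condition no difference was tested, p-values are not given, and fewer cells of a type cannot be told apart from less RNA per cell.

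DNA methylation places a methyl group on cytosine, mostly where a guanine follows (CpG). Dnmt3a and Dnmt3b set new methylation, Dnmt3l has no catalytic activity of its own and stimulates them, and Dnmt1 copies the marks to the new strand after replication, brought to hemimethylated CpG by Uhrf1. The TET enzymes oxidise methylated cytosine, and Tdg, a DNA glycosylase, cuts out the most oxidised forms so that base excision repair can put back a plain cytosine. In blood stem cells, Dnmt3a and Tet2 are known as brakes on self-renewal that are often lost in clonal hematopoiesis, and Dnmt1 is needed to keep the stem cells.

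The members' own promoters differ in the CpG that these enzymes act on. RefSeq (GRCm38.p6) gave 16 start sites for the 9 members, and the window of 250 bases before the start was counted for each gene at its most CpG-rich start. Dnmt3l had 5 CpG there, and the other 8 members had from 15 in Tet1 to 51 in Tet2. The median over all 32851 windows was 6, and 92.1% of them held at least 1 CpG (the letters CG, which read the same on both strands). In 44.4% of all windows the count was lower than in Dnmt3l, and in 99.9% it was lower than in Tet2. The members with the lowest log2 ratios of a single probe measured on both arrays, described below, are Dnmt3b, Dnmt3l and Tdg. The brightest Dnmt3b probe, by contrast, had 0.50. For Dnmt3b, Dnmt3l and Tdg the part of the window before the gene's annotated span is shown 5′ to 3′, with every CpG in capitals. The Dnmt3l stretch also lies inside the annotated span of Aire. The stretches are chr2:153649199-153649410 for Dnmt3b, chr10:78042037-78042286 for Dnmt3l and chr10:82629588-82629813 for Tdg, all on the plus strand.
Dnmt3b: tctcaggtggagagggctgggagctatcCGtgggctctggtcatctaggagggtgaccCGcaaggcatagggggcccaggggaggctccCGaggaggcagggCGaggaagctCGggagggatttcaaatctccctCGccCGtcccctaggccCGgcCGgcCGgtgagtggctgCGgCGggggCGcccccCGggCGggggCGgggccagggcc
Dnmt3l: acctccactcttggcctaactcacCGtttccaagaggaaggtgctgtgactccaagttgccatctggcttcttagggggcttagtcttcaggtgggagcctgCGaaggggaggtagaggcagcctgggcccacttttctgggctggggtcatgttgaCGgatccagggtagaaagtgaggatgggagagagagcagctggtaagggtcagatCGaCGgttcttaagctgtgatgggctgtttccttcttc
Tdg: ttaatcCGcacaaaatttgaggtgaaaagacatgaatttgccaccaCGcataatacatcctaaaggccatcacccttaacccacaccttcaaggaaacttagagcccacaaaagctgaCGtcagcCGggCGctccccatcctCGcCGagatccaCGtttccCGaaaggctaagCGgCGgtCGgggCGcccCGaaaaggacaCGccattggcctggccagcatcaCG
The Dnmt3b and Tdg stretches each hold 16 CpG, in 212 and 226 bases, and the capitals crowd towards the gene. In the 250 bases of Dnmt3l the 5 CpG are thinly spread, with only the last pair close together. Methylation itself was not measured on these arrays.

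The arrays set limits on every value below. The flag of the scanner software put 62.7% (nondiabetic) and 63.9% (diabetic) of the non-control spots well above background. Intensities are given as the software wrote them, and log2 ratios are diabetic over nondiabetic after each array was divided by its 75th percentile. The ± beside a log2 ratio is the error that the software assigns to the 2 spots and not a spread between mice. Probes printed at least 5 times gave a second measure, the SD over spots of 1 probe. This SD was taken within the same arrays, so it likewise holds no spread between mice, cell sorts or RNA amplifications. Measured probes were split into 3 equal classes by brightness, and the median of this SD was 0.25 in the dim class, 0.13 in the middle class and 0.07 in the bright class. Of the member probes, 11 lay in the bright class, 3 in the middle class and 4 in the dim class. Levels of different probes were not ranked, since probes differ in how well they bind. The genes of the sort were bright on both arrays. In nondiabetic and diabetic mice respectively, intensities were 4635 and 4735 for Kit and 475 and 701 for Ly6a (Sca-1). Markers of stem cells and multipotent progenitors, 8 in number, had a median log2 ratio of 0.25, with 6 above 0 and 2 below. Past 2-fold on the brightest probe were only Mllt3 at 1.47, Mecom at -1.20 and Slamf1. Slamf1 was not well above background in nondiabetic mice, and its bound was 2.59-fold upwards. The other Mecom probe had -0.16. The mix of cells within the gate was not tested. Markers of other cells did not all point one way, though all 5 megakaryocyte genes had ratios above 0 on the brightest probe. For Gp1bb that probe had a log2 ratio of 0.12, and another of its probes had -0.81. Of the 6 erythroid genes 5 were well above background, and by log2 ratio the globins Hba-a1 and Hbb-b1 had 1.21 and 1.02 while Gata1, Klf1 and Epor had -0.59, -0.30 and -0.20. The median of the list was -0.20, although its summed intensity, mostly Hba-a1, was 2315 in nondiabetic against 5373 in diabetic mice. In the stroma and endothelium list, with sums of 278 and 1009 and a median of -0.45, Pecam1 had 2.41, Col1a2 had -1.07 and Cxcl12 was at least 1.36-fold lower, with Cdh5 and Col1a1 at background level. The median log2 ratio was -0.22 for granulocyte-monocyte, 0.44 for megakaryocyte, 0.48 for B cell and -0.42 for T and NK cell markers. In these 4 lists the genes past 2-fold were Gp9 at 1.52, Cd79a at 1.51, Klrd1 at least 4.12-fold higher, and Cd3d and Cd3g each at least 2.74-fold lower. Their summed log2 ratios after scaling, each led by its brightest probes, lay between -0.41 and 0.45. The part of these cells in the members' values was not tested.

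All 9 genes had at least 1 probe that passed the background flag on both arrays. Of the 18 probes, 16 were well above background on both arrays and the other 2 on 1 array each. By its brightest probe, none of the 9 genes reached 2-fold, with 0 past it upwards and 0 downwards in diabetic mice. Of the 15192 named genes with a ratio or bound, 11.0% lay past 2-fold upwards and 10.1% downwards, or 21.1% together. The log2 ratio was above 0 in 6 of the 9 members and in 51.2% of all named genes. The median over the members was 0.06 beside 0.02 over all named genes. Over single probes, 0 passed 2-fold upwards and 2 downwards, or 11.1% of the 18, where 22.4% of all 37791 probes with a ratio or bound passed 2-fold, 11.2% upwards and 11.2% downwards. The share of members past 2-fold lay below that of all probes, and the 18 probes are too few to call that particular to them. The shares are also at unlike brightness. Of the 18 probes, 11 lay in the bright class, where 3.45% were at least 2-fold lower against 11.2% of all probes.

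**Figure D1:**
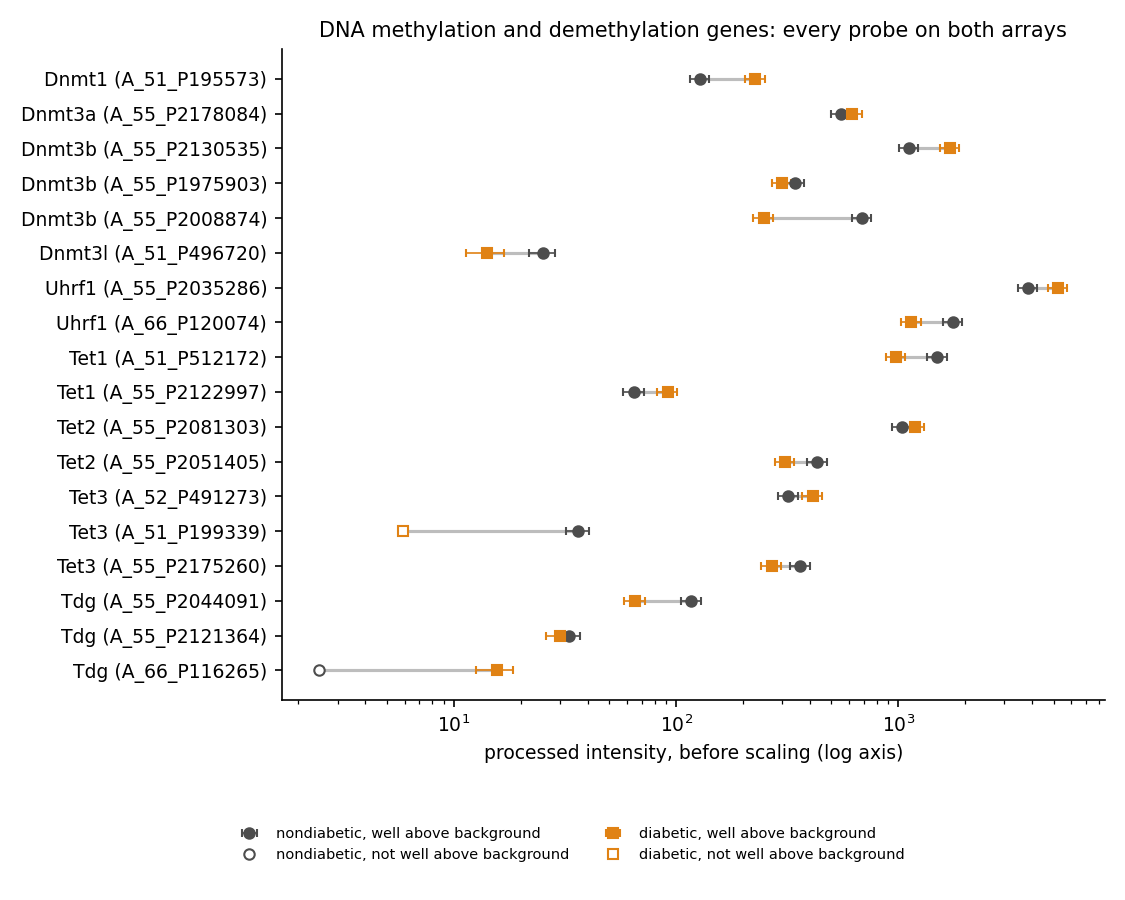
Processed intensity (log axis, before scaling) of each of the 18 member probes in nondiabetic (circles) and diabetic (squares) LSK cells, 1 spot per array, with the software's error as bars on filled symbols. Open symbols were not well above background, which holds for 1 Tet3 probe in diabetic and 1 Tdg probe in nondiabetic mice.

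Dnmt1, which maintains methylation through cell division, was higher in diabetic mice. Its probe (A_51_P195573) read 128 (intensity) in nondiabetic and 227 in diabetic mice. This gave a log2 ratio of 0.71 ± 0.21, or 1.64-fold higher, which is more than the SD of 0.13 for such probes and above the ratio of 83.4% of all probes. This was the highest ratio among the 16 member probes measured on both arrays, and no other probe of Dnmt1 was named on the arrays to set beside it.

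Uhrf1, the partner that brings Dnmt1 to newly copied DNA, gave different answers on its probes. The brighter one (A_55_P2035286), assigned to transcript NM_010931, read 3824 in nondiabetic against 5231 in diabetic mice, and its log2 ratio was 0.33 ± 0.20. The other (A_66_P120074), assigned to NM_001111079, read 1765 against 1144, and its log2 ratio was -0.74 ± 0.20. The ratios were 1.08 ± 0.29 apart on the log2 scale, both exceeded the SD of 0.07 between spots, and the probes were assigned to different transcripts of the gene. Whether the transcripts themselves differ was not tested.

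Dnmt3a, the main de novo enzyme of adult blood stem cells, was nearly the same on both arrays. Its only probe (A_55_P2178084) read 553 in nondiabetic and 621 in diabetic mice. The log2 ratio of 0.05 ± 0.20 was smaller than the SD of 0.07 between spots.

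Dnmt3b, the other de novo enzyme, had 3 probes assigned to the same transcript, NM_001003961, and they did not point the same way. The brightest (A_55_P2130535) read 1114 in nondiabetic against 1704 in diabetic mice, giving 0.50 ± 0.20 on the log2 scale. The second (A_55_P2008874) read 685 against 248, giving -1.59 ± 0.20 or 3.00-fold lower. The third (A_55_P1975903) read 342 against 300.0, giving -0.31 ± 0.20. The second probe was the only member probe measured on both arrays to pass 2-fold, among bright probes of which 3.45% were at least 2-fold lower. It lay 2.08 ± 0.29 below the brightest probe of the same gene, a 4.23-fold gap. Where each probe lies along the gene was not analysed here.

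Dnmt3l, the cofactor without catalytic activity that is best known from germ cells and early embryos, was dim but well above background on both arrays. Its probe (A_51_P496720) read 25.2 ± 3.42 in nondiabetic and 14.1 ± 2.71 in diabetic mice, where the median of the negative control spots was 2.35 and 2.32. The log2 ratio was -0.96 ± 0.34, or 1.94-fold lower, just inside the 2-fold limit and larger than the SD of 0.25 for dim probes. Of all probes, bright and dim together, 11.8% had a lower ratio, and the share among dim probes was not computed. Under the normexp background correction the log2 ratio was -0.28.

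The 3 TET genes, which start the removal of methylation, likewise depended on the probe. Tet1 had a log2 ratio of -0.73 ± 0.20 on its brighter probe (A_51_P512172), which read 1497 in nondiabetic against 976 in diabetic mice. On its dimmer probe (A_55_P2122997) the intensity went from 64.8 to 91.8 and the ratio was 0.38 ± 0.21. The brighter probe was lower and the dimmer one higher in diabetic mice, and both were assigned to NM_001253857.

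Tet2 was close to even on its brighter probe (A_55_P2081303), with 1043 in nondiabetic and 1182 in diabetic mice. Its log2 ratio of 0.06 ± 0.20 was no larger than the SD of 0.07 between spots. Its other probe (A_55_P2051405) read 432 against 309.6, a log2 ratio of -0.60 ± 0.20. Both were assigned to NM_001040400. The distance between them, 0.66 ± 0.29, was the smallest among the 6 members with several probes.

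Tet3 had 3 probes, all assigned to NM_183138. The brightest (A_52_P491273) read 320.0 in nondiabetic against 411 in diabetic mice, giving 0.24 ± 0.20. The next (A_55_P2175260) read 362 against 269, giving -0.55 ± 0.20. The dimmest (A_51_P199339) had 36.3 in nondiabetic mice and 5.90, not well above background, in diabetic mice. Set against the lowest intensity well above background on the diabetic array, this last probe was at least 3.91-fold lower, and it is the second of the member probes past 2-fold. Under the normexp background correction its bound was -0.66 on the log2 scale, short of 2-fold. So 2 of the 3 Tet3 probes were lower in diabetic mice and the brightest was higher.

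Tdg, which acts after the TET enzymes, was lower on its brightest probe (A_55_P2044091), which read 117 in nondiabetic and 65.5 in diabetic mice. The log2 ratio was -0.95 ± 0.21, or 1.94-fold lower, again just inside the 2-fold limit. A second probe (A_55_P2121364) went from 32.8 to 29.9, a log2 ratio of -0.25 ± 0.26 that was no larger than its error. The third (A_66_P116265) was not well above background in nondiabetic mice, at 2.48, and had 15.6 in diabetic mice, a difference of at least 1.41-fold upwards. All were assigned to NM_172552.

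**Figure D2:**
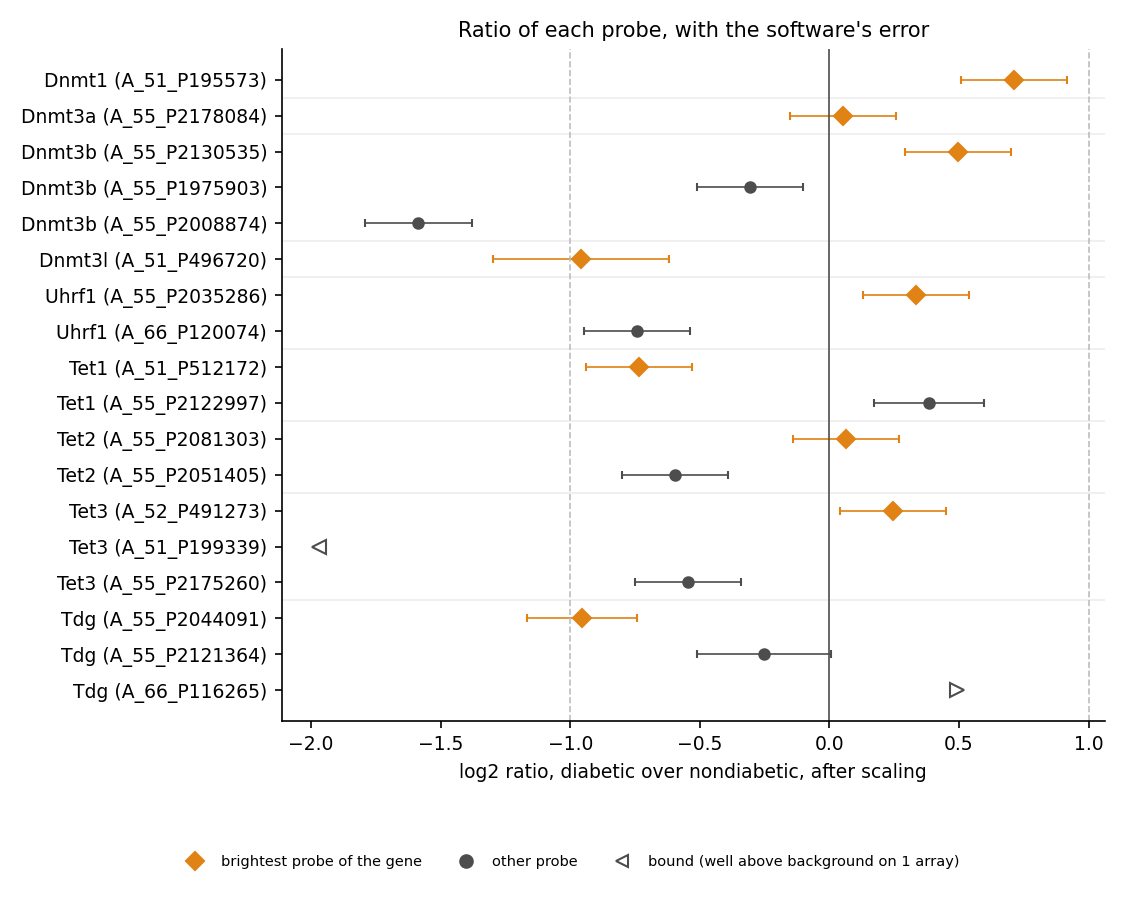
Log2 ratio, diabetic over nondiabetic after scaling, of each of the 18 member probes, with the software's error as bars; diamonds mark the brightest probe of a gene, open triangles are bounds, and dashed lines mark 2-fold. Each of the 6 genes with several probes has probes on both sides of 0, and the lowest values are a Dnmt3b probe at -1.59 and a Tet3 bound at -1.97.

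The members with several probes therefore had no single direction. In 6 of 6 such genes, Dnmt3b, Uhrf1, Tet1, Tet2, Tet3 and Tdg, the probes had log2 ratios of both signs, and in 5 of them, all but Tet2, the probes were more than 2-fold apart. Across the arrays, both signs occurred in 44.9% of named genes with 2 probes that had a ratio or bound and in 68.4% of those with 3. Probes more than 2-fold apart occurred in 40.1% of genes with at least 2. In all, 8 of the 18 member probes lay above 0 and 10 below, where 49.4% of all probes lay above 0. Of the 16 probes measured on both arrays, 9 had a ratio more than 2 times the software's error from 0. The share of all probes past this mark was not computed, so the count cannot be called particular to the members. For Tdg both signs rest on the bound of the probe that was dim in nondiabetic mice. The count of genes with both signs was looked at after the values had been seen, and with 6 genes it describes them and no more.

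**Figure D3:**
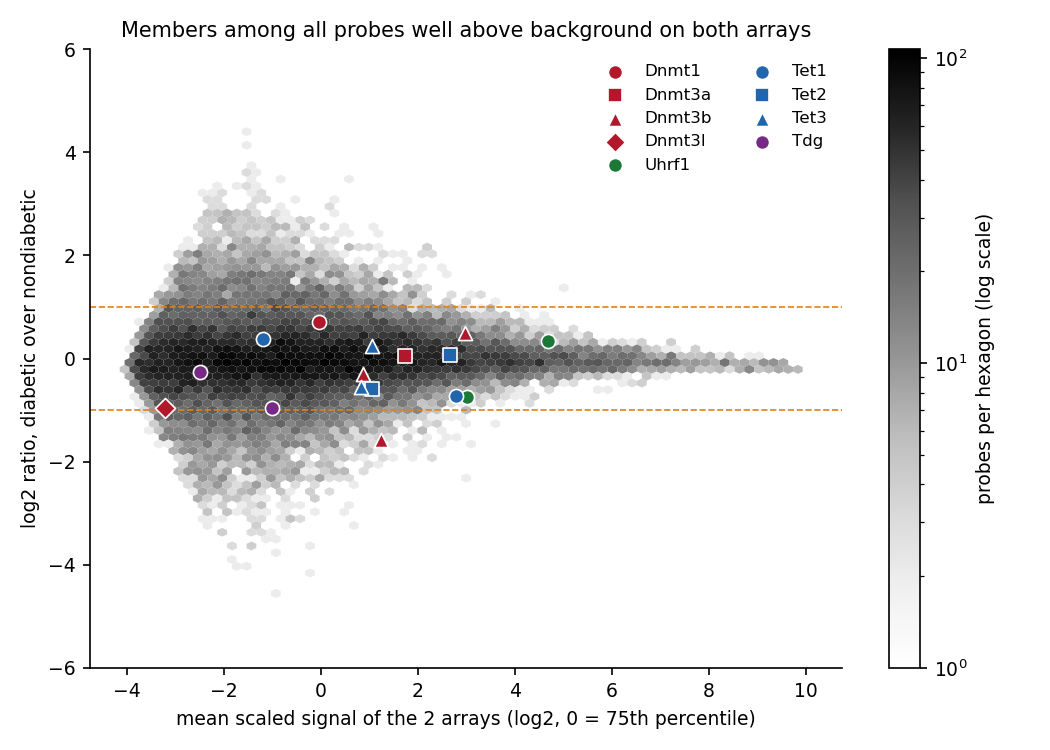
Log2 ratio against the mean scaled signal of both arrays (log2, with 0 at the 75th percentile) for all probes that pass the background flag on both arrays, in grey by density on a log scale, with the 16 member probes that have a ratio in colour and dashed lines at 2-fold. The grey cloud narrows to the right, and the Dnmt3b probe at -1.59 lies outside the 2-fold lines.

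Around these enzymes, 60 further genes of DNA methylation were read from 6 lists of partners, readers, TET partners, repair enzymes, methyl donor enzymes and germline genes known to be held silent by methylation. All were on the arrays, and 50 had a ratio or bound by the brightest probe. Of these 50, 6 passed 2-fold upwards and 4 downwards in diabetic mice, so that 10 of 50 passed it beside the 21.1% of all named genes. The median log2 ratio was -0.06. In 12 of the 17 genes with several measured probes the probes had both signs. Across the arrays this held for 44.9% of named genes with 2 such probes and 68.4% of those with 3.

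Among the partners of maintenance and targeting, 8 of 9 genes had a ratio, with 1 at least 2-fold higher, 0 lower and a median of 0.16. Usp7, a deubiquitinase that stabilises Dnmt1 and Uhrf1, read 1133 in nondiabetic against 2560 in diabetic mice on its brightest probe, giving 1.06 on the log2 scale, while its other probe gave -1.09. Uhrf2, the relative of Uhrf1, had 0.16. Hells, a chromatin remodeller that methylation of repeats depends on, had -0.28. Pcna, the replication clamp that Dnmt1 binds, had 0.16. Among the 8 readers of methylated CpG, 0 passed 2-fold in either direction and the median was -0.06. Mbd4, a glycosylase for mismatches at methylated CpG, had 0.72. Mbd2, Mbd3 and Zbtb4 had -0.45, -0.08 and 0.50 on the brightest probe, and each had another probe past 2-fold downwards, at -1.17, -1.21 and -1.14.

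Of the 11 TET partners and genes of 2-oxoglutarate metabolism, 10 had a ratio or bound, 0 were at least 2-fold higher and 1 was lower, with a median of -0.11. Gadd45g, a stress-induced gene linked to active demethylation, read 193 in nondiabetic against 80.4 in the diabetic sample, a log2 ratio of -1.38. Ogt, which binds the TET enzymes, had 0.57. Idh1 and Idh2, which make the 2-oxoglutarate that TET enzymes use, had 0.32 and -0.09. Of the 14 deaminases and base excision repair genes, which include the steps after Tdg, 12 had a ratio or bound, with 3 at least 2-fold higher, 1 lower and a median of 0.02. Apex1, the main abasic site endonuclease, went from 926 to 2529.8, a log2 ratio of 1.33. Smug1, a uracil glycosylase, went from 40.0 to 105.7, a log2 ratio of 1.28. Neil1, a glycosylase for oxidised bases, was well above background in diabetic mice only and at least 2.84-fold higher. Its relative Neil3 went from 492 to 234, a log2 ratio of -1.19. Ung, the main uracil glycosylase, had a log2 ratio of -0.15.

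Of the 9 genes of methyl donor supply, 8 had a ratio or bound, with 1 at least 2-fold higher, 1 lower and a median of -0.00. Shmt2, the mitochondrial serine hydroxymethyltransferase, read 1027 against 313 in the diabetic sample, a log2 ratio of -1.83. Mtrr, which keeps methionine synthase active, was at 2.45 and not well above background in nondiabetic mice and at 56.6 in diabetic mice, at least 5.11-fold higher. Mat2a, which makes S-adenosylmethionine, the methyl donor of the Dnmt enzymes, had 0.08. Ahcy, which clears the product of the methyl transfer, had -0.41.

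In the germline list, of genes known to be silent in most somatic cells through promoter methylation, 5 of 9 genes, Dazl, Slc25a31, Tex19.1, Stk31 and Asz1, did not pass the background flag on either array. Of the 4 with a ratio, 1 was at least 2-fold higher and 1 lower. Ddx4, a germ cell RNA helicase, read 16.2 against 130.9 in the diabetic sample, a log2 ratio of 2.90. Mael, a gene of transposon silencing in germ cells, went from 26.1 to 11.97, a log2 ratio of -1.24. Each of these rests on 1 spot per array. Taf7l, a germ cell relative of a general transcription factor subunit, was bright on both arrays, with 929.7 against 944 in the diabetic sample, or -0.09 on the log2 scale.

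Because Dnmt1 and Uhrf1 are known to be made mainly in dividing cells, 13 genes of DNA replication and proliferation were set beside them. All 13 were well above background on both arrays, and their summed intensity was 29900.4 in nondiabetic and 33940.8 in diabetic mice. After scaling, the sums differed by 0.07 on the log2 scale. They were led by bright probes, such as Mcm6 at 11978 and Mcm7 at 6394 in nondiabetic mice. By log2 ratio 10 genes lay above 0, among them Mcm2 at 0.69 and Ccna2 at 0.52, and 3 lay below, the lowest being Tyms at -0.42. Of the 13, 2 were at least 2-fold higher and 0 lower. Among all named genes with a ratio or bound, 51.2% lay above 0, 11.0% were at least 2-fold higher and 10.1% lower. The median of the replication and proliferation list was 0.10, beside 0.71 for Dnmt1 and 0.33 and -0.74 for the Uhrf1 probes. Ccnb1, a mitotic cyclin, had a log2 ratio of 1.94 on its brightest probe and as little as 0.10 on another. Ccne1, a cyclin of entry into S phase, had 1.86 on its brightest probe and 0.35 on the other. The part of proliferation in the ratio of Dnmt1 was not tested.

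**Figure D4:**
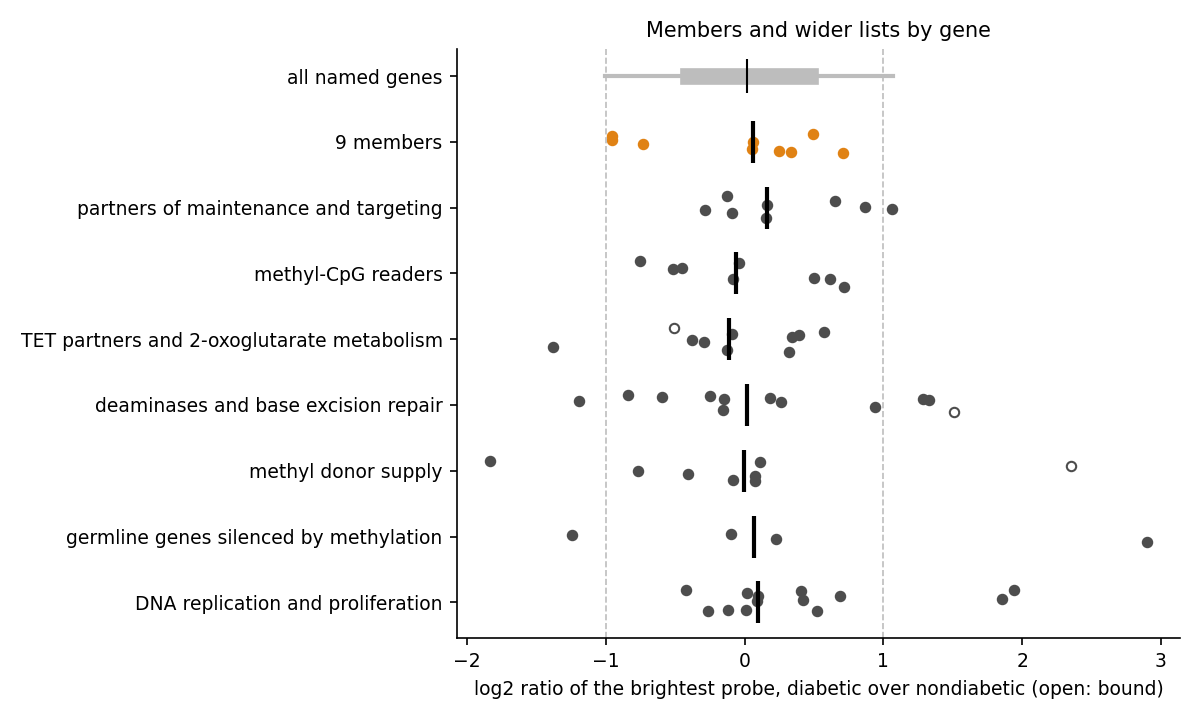
Log2 ratio of the brightest probe of each gene, diabetic over nondiabetic after scaling, for the 9 members (orange), 6 further lists of DNA methylation genes and the replication and proliferation list; open circles are bounds, black bars are medians and dashed lines mark 2-fold. For all named genes the thick bar spans the middle 50% and the thin bar the middle 80%. The 9 members lie between -0.96 for Dnmt3l and 0.71 for Dnmt1.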

How the data were processed

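Gene expression in LSK cells was measured on 2 one-colour Agilent arrays, grouped as nondiabetic or STZ-induced diabetic by the disease state in the labels. For each array the authors deposited scanner tables written by Agilent Feature Extraction 11.5.1.1, whose processed intensities are corrected for background within the array but not normalized between arrays. They also deposited a value table, in which each column is the processed intensity times 1 constant per array, with log2 factors of 3.48 and 3.35 and medians of 332 and 329. How that constant was set is not given in the sources used here. The grid refers to build mm9, and no probe coordinates were used.

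Log2 intensities were centred on the 75th percentile of all non-control spots of an array (168 and 182), spots that the software marked as outliers were dropped from both arrays (none was a member's), and spots of a probe were averaged. Probes were named through RefSeq transcript accessions without versions (GRCm38.p6), which matched 53.7% of the non-control spots, and a probe without a match is unnamed here. The brightest probe by mean log2 signal stood for a gene. A probe well above background on 1 array has a bound, set against its own value on the other array or that array's lowest value above background (10.2 and 10.1), whichever is higher. The number of arrays limits the precision, and no test was made. Genes were named by rule: all members with every probe, further list genes past 2-fold, and 12 list genes whatever their values, of which 1 is not reported here. The members, the lists and the rule were chosen with earlier results of these data known. The steps were tested on simulated data. The alternatives were normexp, quantile normalization, median centring, loess, both filters on dim probes, the value table, outlier spots kept and the mean over a gene's probes, with and without bounds. Python 3.11.15 (numpy 2.4.6, pandas 2.3.3, matplotlib 3.10.9) and R 4.3.3 with limma 3.58.1 were used.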

Additional observations from a re-analysis of the deposited data

How the results depend on the processing

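Each of the 18 member probes kept the sign of its log2 ratio under all 8 alternatives that gave it a value. For the 16 probes measured on both arrays, several of these could not change the ratio. These were the value table, outlier spots kept and both filters on dim probes, and median centring shifted every ratio by the same small amount. The sign of a bound is set by the array on which the probe was well above background. In either direction 0 of the 9 genes passed 2-fold under any of the 10 alternatives. Under normexp with an offset of 50 (run on the median spot signal), the log2 ratio was 0.53 for Dnmt1, 0.13 for Dnmt3a, -0.28 for Dnmt3l and -0.56 for Tdg. With it, the bound of the dim Tet3 probe was -0.66, 1 member probe was at least 2-fold lower, 2 member genes had probes more than 2-fold apart, the further genes past 2-fold were 2 higher and 1 lower, and all probes past 2-fold were 1243 higher and 1259 lower. With no filter on dim probes, 1 member probe was at least 2-fold higher and all probes past 2-fold were 6482 and 6424. With probes that pass the background flag on both arrays alone, and so without bounds, 1 member probe was at least 2-fold lower and 3 genes had probes more than 2-fold apart, and 5 genes in place of 6 had probes of both signs. With the mean over a gene's probes, bounds included at their value, the log2 ratio was -0.47 for Dnmt3b, -0.20 for Uhrf1, -0.18 for Tet1, -0.27 for Tet2, -0.76 for Tet3 and -0.24 for Tdg, and the median over the members was -0.24. With bounds left out of this mean, an alternative added after the data were seen, Dnmt3b, Uhrf1, Tet1 and Tet2 had the same means. In it Tet3 had -0.15 and Tdg -0.60, and the median over the members was -0.20. Of the further genes it put 3 past 2-fold upwards and 5 downwards, where the brightest probe gave 6 and 4. Both means turned the sign of Dnmt3b, Uhrf1, Tet2 and Tet3, whose probes disagree. The cause of the changes under normexp, which also takes another spot signal, was not tested. The counts of genes with probes of both signs or more than 2-fold apart were added after the data were seen. Dnmt3l and dim probes of Tet3 and Tdg lie near the background. With 1 array per condition no replicate could be left out. No paired analysis was possible because the groups hold a single array each, and nothing was tested.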
